A study of Mus musculus with 4 samples.

Results

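Endothelial cells that carried no transcript of Stab2, a scavenger receptor of the lining of marrow sinusoids, were examined in the cells of mouse tibia at postnatal day 6 (P6). Selection used UMI counts, a UMI (unique molecular identifier) being the tag of 1 captured transcript. A barcode, which stands for 1 droplet and usually 1 cell, was kept with at least 1600 genes and at most 10% UMIs of mitochondrial genes. It was chosen with at least 2 UMIs of Cdh5, 0 of Stab2 and at most 1 of the leukocyte gene Ptprc. The pericyte gene Rgs5 had to stay under 20 and the cartilage collagen gene Col2a1 under 50 per 10000 UMIs of the barcode. These limits left 669 barcodes of the 8256 within the limits on genes and mitochondrial UMIs, a share of 8.10% (exact Clopper-Pearson interval 7.52 to 8.71%), and of 14181 barcodes in all.

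The cells came from 1 male P6 mouse, whose 2 tibiae were pooled after the secondary ossification centres had been left out. Its genotype was Col10a1Cre;Rosa26-Tdtomato;Irx3 +/Δ;Irx5 +/-, so the Cre gene was driven by the promoter of the hypertrophic chondrocyte collagen gene Col10a1, the tdTomato reporter marked hypertrophic chondrocytes (HCs) and their descendants, and 1 copy each of the transcription factor genes Irx3 and Irx5 was lost, for Irx3 in HCs by the methods of the study. The mouse served as a heterozygous control in the labels. All groups compared here carried these alleles, since all came from this library. The 4 sequencing entries of the sample held 1 library, so there was no replicate, no test and no p-value, barcodes were not treated as replicates, and all intervals are 95% intervals that cover counting error only.

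The lining of blood vessels differs along the vascular tree. Arterial endothelium signals through Notch and ephrin-B2 and lies on an elastic wall, venous endothelium carries the adhesion molecules that leukocytes bind, and the sinusoids of the marrow are wide, leaky vessels that clear material from blood. In growing bone, capillaries rich in endomucin follow the growth plate, lay down basement membrane and release factors that act on bone-forming and blood-forming cells.

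The chosen barcodes held 7796363 UMIs, with 3182 UMIs in the shallowest, a median of 8956 and 53621 in the deepest. The median number of genes was 3008. Endothelial barcodes that met the same limits but had at least 2 Stab2 UMIs served as the comparison. There were 95 of them, with 1347120 UMIs and a median of 9741 UMIs. Another 42 barcodes had exactly 1 Stab2 UMI (median 9367 UMIs). All remaining kept barcodes, 7450 in number, were deeper, with a median of 14575 UMIs. Scrublet, which marks likely doublets, marked 28 of the 669 barcodes (4.19%) and 5 of the 95 with Stab2 (5.26%), and these were kept.

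The label of endothelium was checked against the 4 markers Cdh5, Emcn, Cldn5 and Plvap. Cdh5, which encodes the cadherin of endothelial junctions (ENSMUSG00000031871; GRCm38 chromosome 8, 104101625 to 104144511, forward strand), was a gene of the rule and is described only. It ran from 0.489 per 10000 UMIs in the lowest barcode over a median of 12.1 to 46.1 in the highest. Summed over the 669 barcodes it stood at 1213 UMIs per 1000000 UMIs of the group (CPM, interval 1189 to 1238), against 13.1 CPM in all other barcodes. The other markers were not in the rule. Emcn, the gene of endomucin (ENSMUSG00000054690; GRCm38 chromosome 3, 137341067 to 137432185), was found in 92.7% of the barcodes, with a median of 10.7 per 10000, and stood at 1105 CPM against 11.1 CPM. Cldn5, a claudin of tight junctions, was found in 88.9% and stood at 1118 CPM against 13.2 CPM. Plvap, which forms the diaphragms of endothelial pores, was found in 91.9% and stood at 849.6 CPM against 8.08 CPM. The markers thus lay far above the level in the remaining kept barcodes, which leave out the endothelial barcodes with Stab2, although some barcodes had none of Emcn, Cldn5 or Plvap.

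To show what the chosen and the left-out endothelial genes look like at their starts, the 250 bases before the start site are printed for Emcn, for the arterial gap junction gene Gja4 and for Stab2 (RefSeq, GRCm38.p6, on the strand of the gene). Emcn lies at chr3:137340828-137341077 on the forward strand, Gja4 at chr4:127314040-127314289 and Stab2 at chr10:87007943-87008192, both on the reverse strand. Capitals mark the ETS core AGGAAG or its reverse complement CTTCCT, the core bound by the ETS family to which the endothelial factors Erg and Fli1 belong.
Emcn: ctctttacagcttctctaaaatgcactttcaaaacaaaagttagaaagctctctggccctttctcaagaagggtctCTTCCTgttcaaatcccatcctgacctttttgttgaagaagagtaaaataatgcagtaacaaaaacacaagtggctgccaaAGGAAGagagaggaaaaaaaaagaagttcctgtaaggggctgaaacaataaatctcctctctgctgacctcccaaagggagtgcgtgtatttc
Gja4: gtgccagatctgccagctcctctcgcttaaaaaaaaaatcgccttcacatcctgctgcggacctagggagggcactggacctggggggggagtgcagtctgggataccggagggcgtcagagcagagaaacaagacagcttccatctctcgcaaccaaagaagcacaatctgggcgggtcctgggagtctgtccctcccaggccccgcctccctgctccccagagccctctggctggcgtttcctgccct
Stab2: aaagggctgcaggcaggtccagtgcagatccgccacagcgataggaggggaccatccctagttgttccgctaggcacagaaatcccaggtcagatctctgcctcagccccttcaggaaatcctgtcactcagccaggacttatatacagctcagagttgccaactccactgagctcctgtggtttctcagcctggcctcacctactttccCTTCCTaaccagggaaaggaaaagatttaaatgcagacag
The core occurred 2 times before Emcn, 0 times before Gja4 and 1 time before Stab2. Either form was found in 29.5% of the 32851 promoters of the table. Of the 22 general endothelial genes listed, 10 had a promoter there and 7 of these held the core. It was in 4 of 15 promoters of arterial genes and in 4 of 9 of sinusoidal genes. The SOX core ACAATG (or CATTGT) was in 10.7% of all promoters and in 1 of 10, 1 of 15 and 0 of 9 of these lists, and the FOX core TAAACA (or TGTTTA) was in 12.03% and in 1 of 10, 0 of 15 and 1 of 9. A match describes the letters only.

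Genes of general endothelial function set the chosen barcodes apart from all remaining kept barcodes, which leave out the endothelial barcodes with Stab2. On the log2 scale with 1 CPM added, 1860 of the 9204 genes that reached 10 CPM in one or the other group were at least 2-fold higher in the chosen barcodes (20.2%). The rule itself required Cdh5, so this contrast describes the cells and supports nothing. Of the 22 general endothelial genes, 22 passed this fold, with a median log2 ratio of 5.69 against 0.15 over all genes tested. Pecam1, the adhesion molecule PECAM-1, stood at 1044 CPM against 22.1 CPM. Flt1, a receptor of VEGF, stood at 779.5 CPM against 9.87 CPM. Among the genes with the largest ratios were also Stmn2, a microtubule regulator best known from neurons (1949 UMIs, and 1.43 CPM in all other barcodes), Nts, the precursor of the peptide neurotensin (287 against 1.94 CPM), and Aplnr, the receptor of apelin (345.5 against 2.86 CPM). Further genes of this kind were Ecscr, Gpihbp1, Ptprb and Rasip1, at 317 to 519 CPM against 3.65 to 5.52 CPM. Gpihbp1 anchors lipoprotein lipase to capillaries. Most of these genes were not particular to barcodes without Stab2. Against the 95 with at least 2 Stab2 UMIs, 2 of the 22 general endothelial genes were at least 2-fold higher, with a median log2 ratio of 0.29. After thinning to 5000 UMIs, Aplnr was found in 60.1% of barcodes without and 75.3% with Stab2. Gpihbp1 was found in 63.3 and 83.15%, Ptprb in 72.6 and 82.0% and Ecscr in 84.0 and 79.8%. Stmn2 and Nts were higher without Stab2, as given below.

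Lymphatic and mural cell genes were low but not absent. Lyve1 was counted 3 times and Ccl21a 3 times over the 669 barcodes, and Pdpn 19 times. Of the Pdpn UMIs, 84.2% lay in sub-cluster 9, described below as mixed with osteoblast RNA. Prox1, the lymphatic master regulator, was counted 134 times, or 17.2 CPM, against 45.3 CPM in the barcodes with Stab2. Mmrn1, the gene of multimerin 1, stood at 11.4 against 98.7 CPM. After thinning to 5000 UMIs, Prox1 was found in 8.08% and Mmrn1 in 6.06% of barcodes, against 0.331 and 0.248% of leukocytes and 0.389 and 0.111% of chondrocytes, reference groups described below. Both lymphatic genes tested were at least 2-fold lower than with Stab2. Of the 10 pericyte and smooth muscle genes, 4 reached 10 CPM and none was at 0 UMIs, with Tagln the most abundant at 17.4 CPM. Their summed level was 89.7 CPM against 283.6 CPM with at least 2 Stab2 UMIs and 781.7 CPM in all other barcodes, with Myh11 and Higd1b at 2 UMIs each. Of 6 tested, 2 were at least 2-fold higher than with Stab2 and 3 lower, among the latter Kcnj8, given below with the sinusoidal genes. The sum was 555.5 CPM in sub-cluster 9, described below as mixed. With both mixed sub-clusters left out it was 53.6 CPM, with 0 of 4 genes higher and 3 lower. Rgs5 was limited by the rule.

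The limits of the rule cut through a range of values. Barcodes with 2 Cdh5 UMIs, the fewest allowed, numbered 20 and had Emcn at 284 CPM and Pecam1 at 341 CPM. The 96 barcodes that failed only by having 1 Cdh5 UMI had Emcn at 13.8 CPM and Pecam1 at 22.6 CPM. The 24 members with 1 Ptprc UMI had Emcn at 789 CPM, and the 16 barcodes with 2 Ptprc UMIs that met all other limits had 436 CPM. In the same way, 6 barcodes failed only by Rgs5 and 30 only by Col2a1. The highest Rgs5 level inside was 13.6 per 10000 and the lowest outside 20.9, and for Col2a1 these were 38.8 and 60.4. A further 39 barcodes had too few genes and 81 too many mitochondrial UMIs, with Cdh5 at 1399 and 1497 CPM.

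The main comparison asked how these cells differed from endothelial cells with Stab2. Stab2 was at 0 in the one and at 425 CPM (interval 391 to 462) in the other by the rule. The 4 markers lay within 2-fold of each other in the groups. Cdh5 stood at 1213 and 1233 CPM, Emcn at 1105 and 1163 CPM, and Plvap at 849.6 and 804 CPM, while Cldn5 stood at 1118 and 1606 CPM, a log2 ratio of -0.52. Of 8541 genes that reached 10 CPM in one or the other group and 10 UMIs over both, 444 were at least 2-fold higher without Stab2 (5.20%) and 394 at least 2-fold lower (4.61%). Counts of list genes are to be read beside these shares. Both counts depended on the processing, with 175 to 996 genes higher and 230 to 596 lower over the alternatives of the last section. The median log2 ratio over all these genes was 0.14, which is the level that list medians below are to be read against.

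**Figure D1:**
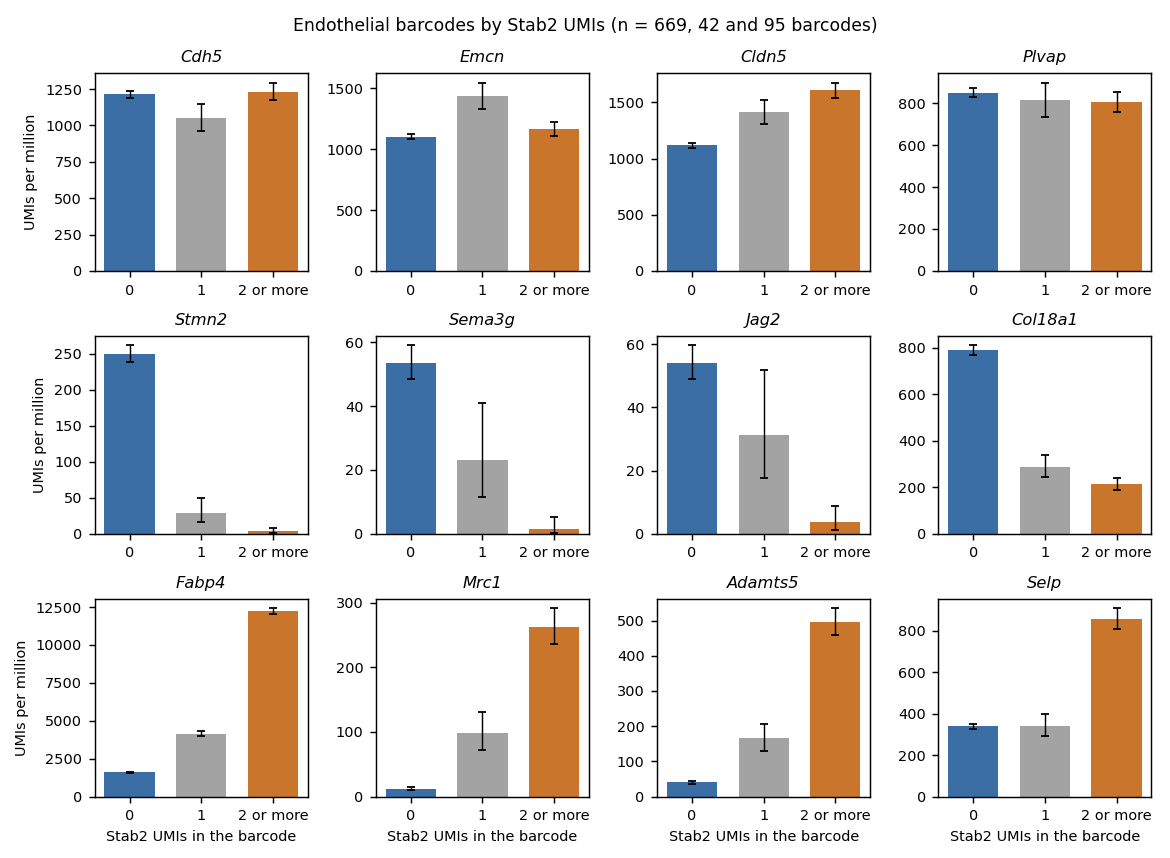
Levels (CPM, vertical axes from 0) of 12 genes in endothelial barcodes with 0, 1 and 2 or more Stab2 UMIs (669, 42 and 95 barcodes), with exact Poisson 95% intervals of the counts as error bars. The 4 markers in the top row differ by less than 2-fold between the 3 groups, Stmn2, Sema3g, Jag2 and Col18a1 are highest at 0 Stab2 UMIs, and Fabp4, Mrc1, Adamts5 and Selp are highest at 2 or more.

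Among the lists of vessel genes, arterial genes were the clearest group on the higher side. The osteoblast list had a larger median log2 ratio, 2.87 with 6 of 8 genes higher, and is read below with RNA of other cells. Of 19 arterial genes tested, 15 were at least 2-fold higher without Stab2 and 0 lower, with a median log2 ratio of 1.79 (1.79 also with genes at 0 UMIs set to their bound). Gja4, which encodes connexin 37 of arterial gap junctions (ENSMUSG00000050234; GRCm38 chromosome 4, 127311421 to 127314039, reverse strand), was counted 661 times in 16.4% of the 669 barcodes, or 84.8 CPM (interval 78.4 to 91.5). In the 95 barcodes with Stab2 it was counted 0 times, so it was at least 38.1-fold higher, taking 3 UMIs over the group as the limit that a count of 0 allows. The median barcode had none, and the highest had 28.6 per 10000. Thus most barcodes without Stab2 also lacked Gja4.

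Sema3g, a secreted semaphorin of arteries, stood at 53.6 CPM against 1.49 CPM, the latter from 2 UMIs, a log2 ratio of 4.46 with a counting interval of 3.26 to 5.66. Jag2, a Notch ligand, stood at 54.1 against 3.71 CPM, a log2 ratio of 3.55. Gja5, which encodes connexin 40, was counted 212 times without and 1 time with Stab2, a log2 ratio of 4.02 with a counting interval of 2.80 to 5.24. Bmx, a kinase of arterial endothelium, was counted 124 and 0 times, at least 7.14-fold higher. The Notch target Hey1 stood at 30.8 against 8.17 CPM, and Efnb2, the gene of ephrin-B2, at 202 against 63.8 CPM. Nrp1, a co-receptor of VEGF, stayed within 2-fold, at 259.5 against 223 CPM.

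The arterial genes differed in how widely they were found. Eln, which encodes elastin, stood at 569.5 CPM against 95.8 CPM, but 81.4% of its UMIs without Stab2 came from 27 barcodes of a single sub-cluster, described below. With Stab2, 5 barcodes held 64.3% of the Eln UMIs. Fbln2, a fibulin of the vessel wall, was found more widely, in 81.5% of the barcodes without Stab2 and 45.3% of those with it, at 545 against 131 CPM. Efnb2 was found in 55.6 to 92.6% of the barcodes of each sub-cluster. Mgp, an inhibitor of calcification, stood at 249.5 against 84.6 CPM, with 62.5% of its UMIs in the same 27 barcodes.

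Outside the lists, Stmn2 was counted 1949 times, in 36.0% of the barcodes without Stab2, and 5 times with Stab2, a log2 ratio of 5.74. Ltbp4, which binds latent TGF-beta and helps elastic fibre assembly, stood at 352 against 31.2 CPM. Ptn, a heparin-binding growth factor, stood at 135 against 11.9 CPM. S100a4, a calcium-binding protein, stood at 79.8 against 3.71 CPM, and Nts at 287 against 27.5 CPM. Each of these genes was also at least 2-fold higher when the barcodes with other cells' RNA described below were left out.

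**Figure D2:**
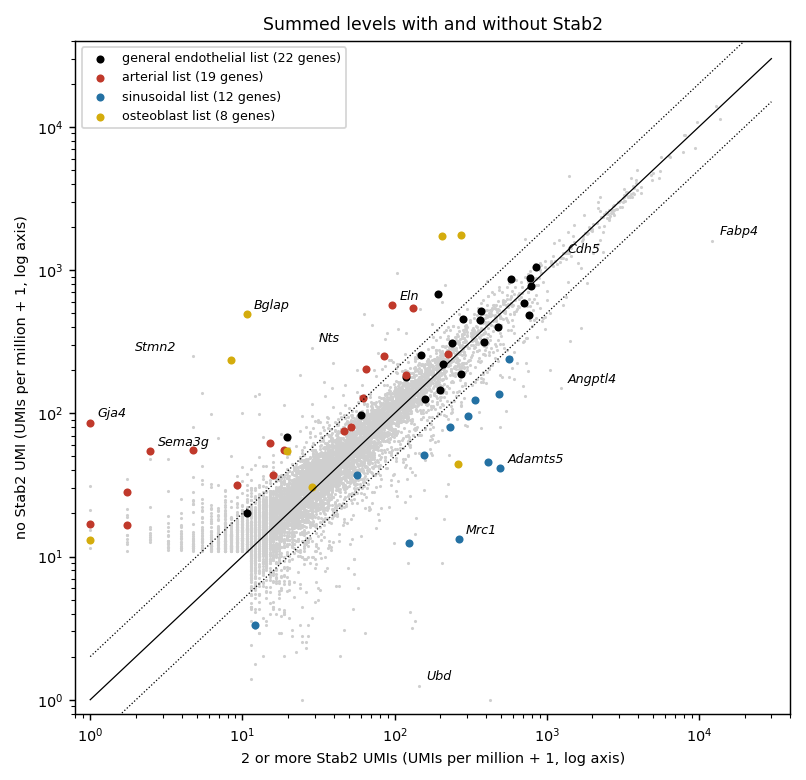
Summed levels of the 8541 genes tested in endothelial barcodes with 2 or more Stab2 UMIs (horizontal axis) and with none (vertical axis), both as CPM plus 1 on log axes, with equality as a solid line, 2-fold differences as dotted lines and 4 gene lists in colour. Arterial genes lie mostly above the upper dotted line, 15 of 19, sinusoidal genes mostly below the lower one, 11 of 12, and 20 of 22 general endothelial genes between them.

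Genes of sinusoids were on the lower side. Of 12 sinusoidal genes tested, 11 were at least 2-fold lower without Stab2 and 0 higher, with a median log2 ratio of -1.76. Mrc1, the mannose receptor, stood at 12.2 CPM (10.3% of barcodes) against 263 CPM (86.3%), a log2 ratio of -4.32. Adamts5, a protease of proteoglycans, stood at 40.5 against 496 CPM. Abcc9, a subunit of potassium channels, stood at 44.9 against 408 CPM, and Kcnj8, which encodes its partner subunit, at 17.3 against 210.1 CPM. Kcnj8 is also in the pericyte and smooth muscle list, whose sum with Stab2 was 283.6 CPM. Il6st, the signal-transducing receptor of interleukin-6 cytokines, stood at 134 against 485.5 CPM. Stab1, the close relative of Stab2, stood at 240 CPM and was still found in 78.0% of the barcodes without Stab2, against 564 CPM and 98.9%. The named genes with the largest ratios on this side were Ubd, counted 2 times against 195 times, and Cxcl9, counted 17 times against 174 times, both induced by interferon. Of the Stab2-positive counts, 5 barcodes held 65.6% for Ubd and 93.1% for Cxcl9, so these values rest on few barcodes. Adgrg6 (3.08 against 126 CPM), Rgs4 (2.56 against 135 CPM), Clca3a1 (8.08 against 205 CPM) and Lipg (1.92 against 63.1 CPM) were found more widely.

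Lipid genes of capillaries were split. Fabp4, which carries fatty acids (ENSMUSG00000062515), was found in 66.7% of barcodes without and in 100% with Stab2, with medians of 3.31 and 105 per 10000. Its level was 1608 CPM (interval 1580 to 1637) against 12237 CPM (interval 12051 to 12425), a log2 ratio of -2.93. The highest barcode without Stab2, at 268 per 10000, lay within the range of those with it, so the groups overlapped. Cd36, a fatty acid receptor, stood at 79.5 against 492 CPM. Lpl, lipoprotein lipase, stood at 30.9 against 223 CPM, with 5 barcodes holding 73.9% of its UMIs without and 58.1% with Stab2. Of the Lpl UMIs without Stab2, 69.7% lay in sub-cluster 9, described below as mixed with osteoblast RNA. On the other side, the water channel Aqp1 stood at 331 against 86.1 CPM and the transcription factor Meox2 at 27.7 against 2.23 CPM, the latter from 3 UMIs, a log2 ratio of 3.15 with a counting interval of 2.01 to 4.29. Of the Meox2 UMIs without Stab2, 36.1% lay in the mixed sub-cluster 9 and 26.4% in sub-cluster 4. Meox2 was still at least 2-fold higher with the mixed sub-clusters left out. In all, 3 of 12 genes of this list were at least 2-fold higher and 5 lower. Angptl4, which inhibits lipoprotein lipase, stood at 148 against 1234 CPM.

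Of 9 venous genes tested, 3 were at least 2-fold lower without Stab2 and 0 higher, with a median log2 ratio of -0.70. These were Lrg1 (153 against 700 CPM), Ackr1 (7.95 against 121.7 CPM) and Selp. Selp encodes P-selectin, to which leukocytes bind. It was found in 27.4% of barcodes without and 88.4% with Stab2, at 339 CPM (interval 327 to 353) against 858 CPM (interval 809 to 909). Of its UMIs without Stab2, 77.9% lay in sub-cluster 4, described below, where it stood at 2049 CPM, above the level with Stab2, and it stood at 0 to 93.0 CPM in sub-clusters 1, 2, 3, 5, 6 and 7. Vwf stood at 109.9 against 199 CPM and Nr2f2, a venous transcription factor, at 116 against 189 CPM, both within 2-fold.

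The 42 barcodes with 1 Stab2 UMI lay between the groups for 11 of 18 genes read in them and outside for 7, which were Adamts1, Cdh5, Col4a1, Cxcl12, Emcn, Igfbp3 and Igfbp7. Fabp4 stood at 4147 CPM in them, Mrc1 at 98.2 CPM and Adamts5 at 165 CPM, each between the levels at 0 and at 2 or more UMIs. Sema3g at 23.0 CPM, Jag2 at 31.3 CPM and Stmn2 at 29.2 CPM also lay between. Selp, at 340.4 CPM, was as low as without Stab2. Depth bears on the rule, since a barcode with few UMIs can miss a transcript. After thinning to 5000 UMIs, a Stab2 UMI remained in 73 of the 89 Stab2-positive barcodes that were deep enough (82.0%). Barcodes from cells with Stab2 can therefore be among the 669.

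Some of the 669 barcodes carried RNA of other cells. Their osteoblast genes summed to 4354 CPM against 805 CPM with Stab2, with 0 of 10 genes at 0 UMIs, and 6 of 8 genes tested were at least 2-fold higher. Bglap, the gene of osteocalcin, stood at 492 against 9.65 CPM, with 93.7% of its UMIs in 5 barcodes. Col1a2 had the most UMIs, at 1764 against 274 CPM. Myeloid genes summed to 1161 against 1081 CPM, led by S100a9 at 464 CPM, and Elane stood at 98.1 against 5.20 CPM, with a log2 ratio of 0.03 once the 66 barcodes described next were left out. Haemoglobin and other erythroid genes summed to 12243 against 14017 CPM, led by Hbb-bs. Lymphoid genes summed to 135 against 70.5 CPM, with Ighm at 48.2 CPM and Cd3e at 0 UMIs. Cartilage genes summed to 1032 against 1012 CPM, and Col2a1, with the most UMIs of them, was limited by the rule. Of the tendon and muscle genes, summing to 47.6 against 23.0 CPM, Fmod was the most abundant, and 3 of 8, among them Myod1 and Myog, were at 0 UMIs.

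The osteoblast and myeloid counts lay mostly in 66 barcodes of 2 sub-clusters. Of the lymphoid counts, 72.9% of Ighm and 84.5% of Vpreb3 UMIs lay in another, sub-cluster 1, and those of Col2a1 were spread over all 9. Of the 2, one, of 36 barcodes, held 95.3% of the Elane UMIs and 63.4% of the Hbb-bs UMIs, and Scrublet marked 17 of its barcodes. The other, of 30 barcodes, held 80.4% of the Col1a1 UMIs, and Scrublet marked 3. With both left out, 603 barcodes remained, and osteoblast genes summed to 600 CPM and myeloid genes to 228 CPM, while cartilage genes summed to 1051 CPM and lymphoid genes to 152.5 CPM. Of 8466 genes then tested, 433 were at least 2-fold higher than with Stab2 (5.11%) and 491 at least 2-fold lower (5.80%), and 362 of the former and 353 of the latter were among those called before. In the arterial list 15 of 19 genes were then higher, and in the sinusoidal list 11 of 12 lower. The osteoblast list had 1 of 7 higher and 2 lower. Myeloid and erythroid genes then stood lower than with Stab2, 5 of 6 and 6 of 7. No barcode had been left out of the group with Stab2, in which 5 barcodes held 95.3% of the Hbb-bs UMIs. Of 8 genes of marrow stroma 0 were higher and 5 lower before the 66 were left out, with sums of 662 and 1353 CPM, and of 2 megakaryocyte genes 1 was higher and 1 lower, with sums of 50.4 and 109 CPM. The part of RNA of other cells in the results was not tested beyond these values.

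Receptors and ligands of vessel growth were called in both directions. Of 22 genes, 2 were at least 2-fold higher and 2 lower, with a median log2 ratio of -0.08, beside 5.20% and 4.61% of all genes tested. The VEGF receptors Flt1 (779.5 against 783 CPM) and Kdr (486 against 759 CPM), the TGF-beta co-receptor Eng (584.5 against 710.4 CPM) and Ramp2, which makes the receptor of adrenomedullin (514 against 368 CPM), were within 2-fold. Pgf, placental growth factor, stood at 66.6 against 5.94 CPM, and Vegfc at 54.9 against 17.8 CPM, which was under 2-fold with at most 5% mitochondrial UMIs (log2 ratio 0.94). Flt4, the receptor of Vegfc, stood at 122 against 338 CPM, and Angpt1, a ligand of Tie2, at 3.33 against 10.4 CPM. The Angpt1 value rests on few UMIs, and 61.5% of those without Stab2 lay in the mixed sub-cluster 9.

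Among Notch genes, 3 of 14 were at least 2-fold higher, namely Jag2, Hey1 and Notch4 (74.9 against 33.4 CPM). The log2 ratio of Notch4, 1.14, dropped under 2-fold as a mean over barcodes (0.95) and after thinning (0.69). The ligand Dll4 stood at 79.4 against 50.5 CPM and the receptor Notch1 at 231 against 164 CPM. Notch3, a receptor of mural cells, was lower, at 5.77 against 19.3 CPM. Hes1, a Notch target, stood at 266 against 416 CPM.

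Genes linked with tip cells and the endomucin-rich capillaries near the growth plate were 6 of 16 at least 2-fold higher and 1 lower. Cxcr4, the receptor of Cxcl12, stood at 95.3 against 23.8 CPM. Pdgfb, which recruits pericytes, stood at 149.7 CPM, in 57.5% of barcodes, against 37.9 CPM, in 31.6%. Igfbp3, a carrier of insulin-like growth factors, stood at 594 against 205 CPM. Emcn itself was not higher, at 1105 against 1163 CPM. Of the sub-clusters described below, Igfbp3 was highest in 6 and 3 (2437 and 1891 CPM), where Emcn stood at 642 and 582 CPM. In 4 and 5, where Emcn was highest (1685 and 1682 CPM), Igfbp3 stood at 69.6 and 64.0 CPM. Pdgfb was spread more evenly, in 44.4 to 85.0% of the barcodes of each of sub-clusters 1 to 7. Rgcc, a regulator of the cell cycle, was the gene that was lower, at 572 against 1280 CPM, and under 2-fold (log2 ratio -0.97) against all barcodes with at least 1 Stab2 UMI.

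Secreted factors that act on neighbouring cells went both ways, with 8 of 25 at least 2-fold higher and 6 lower. Kitl, stem cell factor, was within 2-fold and not among these, at 342 CPM, in 81.6% of barcodes, against 179 CPM, in 53.7%. Igfbp7, a protein of the vessel surroundings, stood at 1660 against 714 CPM, and Tgfb2 at 42.1 against 4.45 CPM. Dhh, a hedgehog ligand, stood at 19.9 against 4.45 CPM. Cxcl12, the chemokine that holds blood stem cells in the marrow, stood at 197 against 759 CPM. It was found in 23.8% of barcodes without and 17.9% with Stab2, and 5 barcodes held 93.9% of the UMIs with Stab2. Spp1, osteopontin, stood at 364 against 88.3 CPM, and without the 66 barcodes its log2 ratio turned to -0.44.

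Basement membrane genes were on the higher side, 4 of 14 at least 2-fold and 0 lower, with a median log2 ratio of 0.57. Col18a1, which contains endostatin, stood at 789 CPM, in 92.2% of barcodes, against 214 CPM, in 80.0%. Col15a1 stood at 388 against 104 CPM, the laminin gene Lamb1 at 257 against 116 CPM and Nid2 at 219 against 105 CPM. For Nid2 the log2 ratio of 1.05 lay at the limit and was just under it under 3 alternatives, at 0.91 in the lowest. Col4a1, a chain of collagen IV, was found in 97.2% and 100% of barcodes, at 2988 against 2183 CPM.

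Of 20 protease and inhibitor genes, 1 was at least 2-fold higher and 4 lower, beside 5.20% and 4.61% of all genes tested. The share that was higher was thus near that over all genes. The higher one was Mmp2, a gelatinase, with a log2 ratio of 1.11 that was 0.66 to 0.91 under 3 alternatives. Timp3, an inhibitor of metalloproteinases, stood at 460.1 against 947 CPM, a log2 ratio of -1.04 that was -0.92 to -0.97 under 4 alternatives. Mmp14, a membrane-bound collagenase, stood at 203 CPM (74.6% of barcodes) against 200.4 CPM (81.1%), a log2 ratio of 0.02. Adamts1 stood at 545 against 906 CPM, within 2-fold. Mmp13 stood at 43.2 against 260 CPM, with 95.7% of the UMIs with Stab2 in 5 barcodes and 72.4% of those without in sub-cluster 9, and stood at 13.7 CPM without the 66 barcodes.

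Among flow and junction genes, 4 of 15 were at least 2-fold higher and 2 lower. Cav1, the gene of caveolin 1, stood at 411 against 70.5 CPM, and Nos3, endothelial nitric oxide synthase, at 67.3 against 18.6 CPM. Thbd and Procr, which encode the anticoagulant receptors thrombomodulin and the protein C receptor, stood at 76.8 against 171 CPM and 95.4 against 217.5 CPM. Thbd was under 2-fold (log2 ratio -0.92) against all barcodes with at least 1 Stab2 UMI. Of the general endothelial genes, 2 of 22 were at least 2-fold higher and 0 lower, Nos3 and Cd34 (677 against 193 CPM). Cell cycle genes had 1 of 12 higher, Ccnb1, and immediate early and stress genes 0 of 12 in either direction. Over all genes tested, 5.20% were higher and 4.61% lower, so the counts of general endothelial and cell cycle genes are not read as results.

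Shares of barcodes were compared at 1 depth, after thinning to 5000 UMIs, which left out 75 of the 669 barcodes and 6 of the 95. The background was read from 1210 leukocyte barcodes (Ptprc of at least 3 UMIs, no Cdh5, median depth before thinning 12776 UMIs, 61 left out) and 1799 chondrocyte barcodes (Col2a1 of at least 200 per 10000, no Cdh5 or Ptprc, median 21869 UMIs, 5 left out). A Gja4 UMI was found in 13.5% of barcodes without Stab2 (16.4% before thinning, thinned interval 10.8 to 16.5%) and in 0 of 89 with Stab2, which allows up to 4.06% as an exact upper bound. The background was 0 of 1210 leukocytes and 0.278% of chondrocytes. Stmn2 was found in 31.1% against 2.25%, with 0 of 1210 and 0.167% as background. Mrc1 was found in 5.89% of barcodes without and in 68.5% with Stab2, against 6.28% of leukocytes, which can include macrophages that use this gene, and 0.167% of chondrocytes. Before thinning it was found in 11.9 to 15.05% of the barcodes of sub-clusters 1, 2, 4 and 5, described below, and in 0 of those of 3, 6 and 7. Fabp4 was found in 59.1% against 100%, with 5.79% and 4.17% as background. Bglap was found in 8.42% and 5.62%, against 7.93% of leukocytes and 5.39% of chondrocytes, so the share of barcodes with a UMI was near background in both groups, while 93.7% of the UMIs without Stab2 lay in 5 barcodes as given above.

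The 669 barcodes were clustered among themselves into 9 sub-clusters, from 1500 variable genes without those of secreted factors, proteases, basement membrane and stress. The genes that lead a sub-cluster describe it and are no result. Of the leading genes, Sema3g, Cxcl12, Angptl4, Igfbp3 and Spp1 were secreted factors left out of the clustering, so they did not define the sub-clusters. Sub-cluster 3 (77 barcodes, 11.5%) and sub-cluster 7 (27 barcodes, 4.04%) were arterial-like, with 4 and 6 arterial genes among their 10 leading genes. Not all arterial genes went with the name of sub-cluster 3. Eln was found in 40.3% of its barcodes, against 58.1% of those of sub-cluster 4. Of the Fbln2 UMIs, 15.85% lay in sub-cluster 3 and 20.4% in sub-cluster 4. Sub-cluster 4 (93 barcodes, 13.9%) was venous-like, led by Selp, Sele and Vwf, together with the adhesion genes Vcam1 and Icam1, although Vwf was higher in sub-cluster 7 (742 CPM) than in it (310 CPM). Before thinning, the venous genes Nr2f2 and Ephb4 were found in 63.4% and 54.8% of its barcodes, against 65.35% and 72.3% in sub-cluster 1. Sub-cluster 1 was deeper, with a median of 14163 against 8492 UMIs. In sub-cluster 5, with a median of 7833 UMIs, the shares were 62.9% and 59.3%. Erythroid genes summed to 16584 CPM in sub-cluster 4, against 733 to 7348 CPM in sub-clusters 1, 2, 3, 5, 6 and 7. The part of erythroid RNA in it was not tested. Sub-cluster 6 (40 barcodes, 5.98%) was tip cell-like, with Pgf, Cxcr4 and Igfbp3, although Esm1 and Kcne3 of the same list were higher in sub-clusters 3 (138.6 CPM) and 2 (183.8 CPM) than in it (67.2 and 38.7 CPM). The other sub-clusters stayed unnamed.

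**Figure D3:**
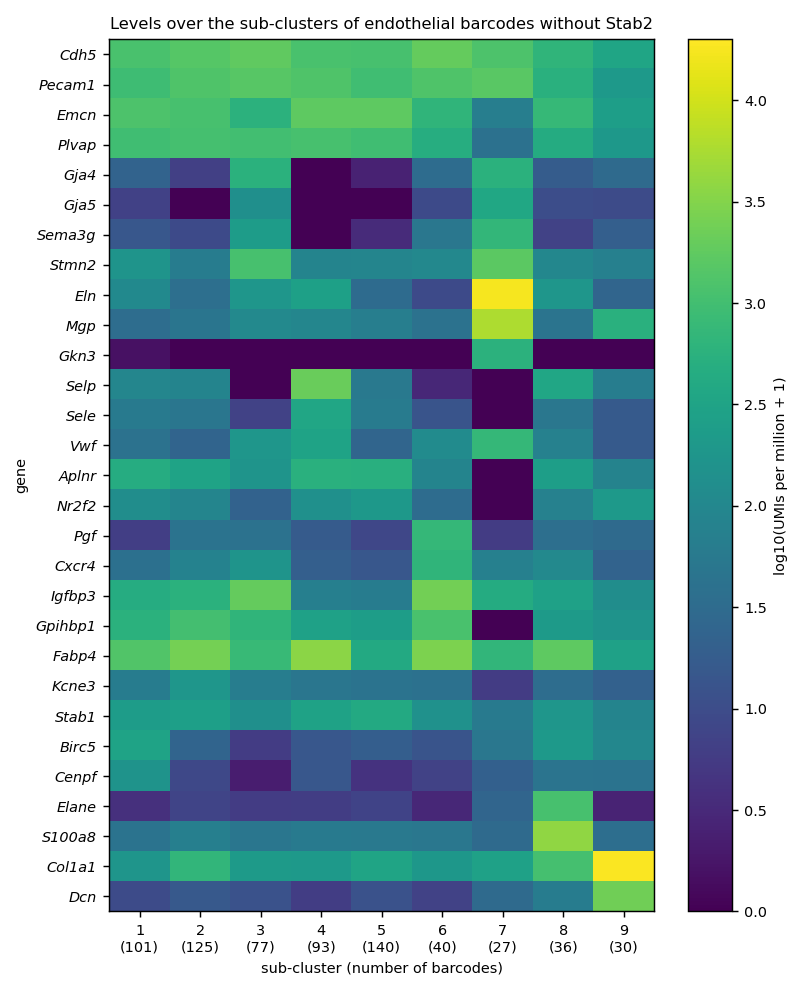
Levels of 29 genes over the 9 sub-clusters of endothelial barcodes without Stab2 (number of barcodes in brackets), as log10 of CPM plus 1 in colour. Gja4 and Gja5 are bright in sub-clusters 3 and 7, Eln, Mgp and Gkn3 in 7, Selp and Sele in 4, Pgf and Cxcr4 in 6, and genes of myeloid cells and osteoblasts in 8 and 9.

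Both arterial-like sub-clusters had Gja4 (558 and 547 CPM), Sema3g (239.5 and 713 CPM) and Stmn2 (1103 and 1640 CPM), and together with Gja5 (139 and 356 CPM) these set them apart. They differed in the rest. In the smaller one Eln reached 17654 CPM against 177.5 CPM in the larger, Mgp 5937 against 105 CPM and Fbln5, a fibulin of elastic fibres, 3667 against 351 CPM. Gkn3 was counted in the smaller alone among these 2, at 586 CPM. Emcn stood at 68.3 CPM and Plvap at 39.1 CPM there, the lowest of the 9 sub-clusters, and Gpihbp1, Aplnr, Nr2f2 and Selp were at 0 UMIs. In the larger, Emcn stood at 582 CPM, Plvap at 997 CPM and Gpihbp1 at 659 CPM. The pericyte and smooth muscle list summed to 107 CPM in the smaller and 69.3 CPM in the larger.

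Within the 603 barcodes without the mixed sub-clusters, Gja4 was found in 105 and Selp in 168, and 2 had both. Of the barcodes with Gja4, 80.0% also had Sema3g, against 5.62% of those without. Aplnr was found in 18.1% of barcodes with and 83.5% of those without Gja4, and Nr2f2 in 16.2% and 53.6%. Of 168 barcodes with Selp, 60.7% had Sele, against 17.0% without. Pgf was found in 85 barcodes, of which 63.5% had Cxcr4, against 21.8% without. These shares describe 1 library at unequal depths.

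Sub-cluster 5, with 140 barcodes (20.9%) the largest, had no leading gene from an endothelial list, and 1, Pf4, from the megakaryocyte list. Emcn stood at 1682 CPM in it, Nr2f2 at 198.5 CPM and Stab1 at 413 CPM. Its leading genes included Npnt, a matrix ligand of integrins (438 CPM), and Slco2a1, a prostaglandin transporter (882 CPM). Sub-cluster 2 (125 barcodes, 18.7%) had Gpihbp1 at 1048 CPM. Its leading genes included the interferon-induced genes Ifit1, Iigp1, Irgm1, Cxcl10, Rtp4 and Rsad2, each found in a minority of its barcodes. Ifit1 was found in 1.6% of them, Rsad2 in 8.8%, Cxcl10 in 14.4%, Iigp1 and Rtp4 in 19.2% and Irgm1 in 42.4%. Cxcl10 and Iigp1 were found in more of sub-cluster 4, 25.8% and 32.3%. For Ifit1, 5 barcodes held 97.2% of all UMIs of the 669. The leading genes Tfpi2, Hilpda, Angptl4 and Kcne3 were found in 68.0%, 58.4%, 54.4% and 40.8% of sub-cluster 2. This sub-cluster also had the lowest median depth, 6689 UMIs. Sub-cluster 1 (101 barcodes, 15.1%) was led by genes of dividing cells, such as Birc5 (310 CPM) and Cenpf (159.8 CPM), beside the B cell genes Vpreb3 and Ighm. Its median depth was 14163 UMIs, and Scrublet marked 7 of its barcodes. The part of B cell RNA in this sub-cluster was not tested.

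The 2 mixed sub-clusters were deeper than the others. Sub-cluster 8 had a median of 15544 UMIs, Elane at 1127 CPM and S100a8 at 3827 CPM, and Cdh5 was still at 645 CPM. Sub-cluster 9 had a median of 17294 UMIs, Col1a1 at 18636 CPM, Dcn at 2303 CPM and Cdh5 at 330.5 CPM. Whether they are doublets was not tested.

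Genes that had been kept out of the clustering were then read over the sub-clusters. Col4a1 stood at 5057 CPM in tip cell-like and 4908 CPM in the larger arterial-like sub-cluster, at 2388 to 3760 CPM in sub-clusters 1, 2, 4 and 5, and at 112 CPM in the elastin-rich one. Igfbp7 followed the same order at the extremes, with 3712 CPM in tip cell-like and 102.5 CPM in elastin-rich barcodes. Col18a1 had its highest level, 2074 CPM, in the larger arterial-like sub-cluster and stood at 1230 CPM in the elastin-rich one. Kitl ran only from 313 to 518 CPM over sub-clusters 1 to 7.

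**Figure D4:**
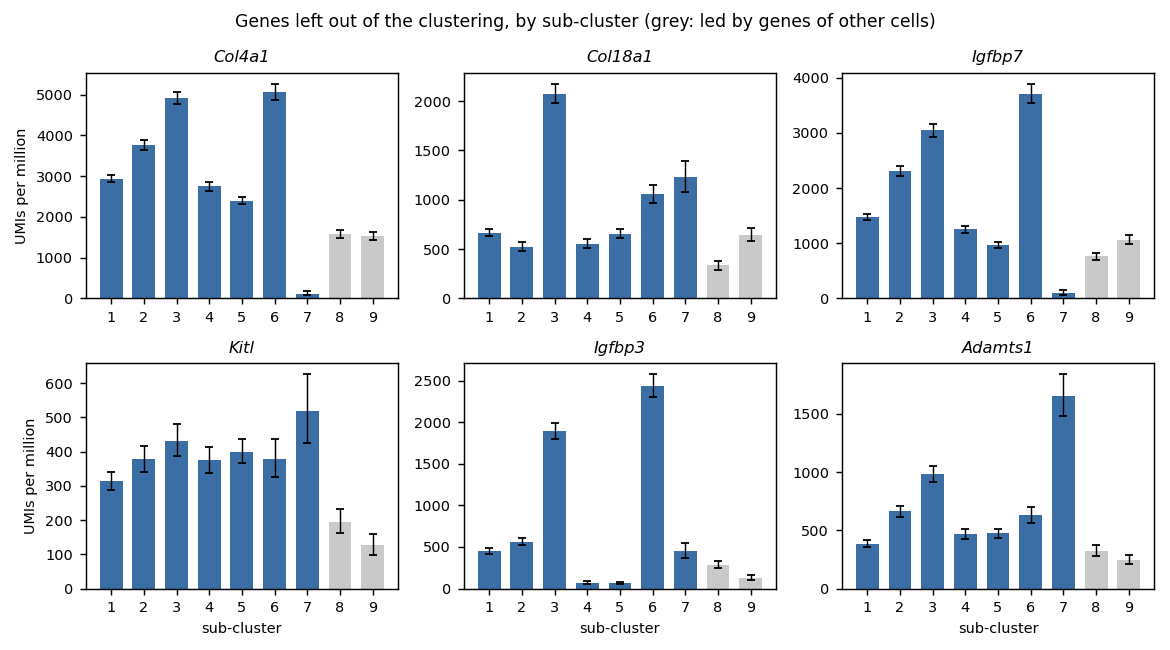
Levels (CPM, vertical axes from 0) of 6 genes that were left out of the clustering, over the 9 sub-clusters, with exact Poisson 95% intervals as error bars and the 2 sub-clusters led by other cells' genes in grey. Col4a1 and Igfbp7 are lowest in sub-cluster 7 and highest in 6, Col18a1 is highest in 3, Kitl runs from 313 to 518 CPM over 1 to 7, Igfbp3 is a leading gene of sub-cluster 6 and helped to name it, and Adamts1 is highest in 7 at 1655 CPM.

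Other secreted factors were also uneven. Bmp6, a bone morphogenetic protein, stood at 220 CPM in the elastin-rich and 38.9 CPM in the larger arterial-like sub-cluster, against 0 to 12.2 CPM in sub-clusters 1, 2, 4, 5 and 6. Edn1, endothelin 1, stood at 439 and 140 CPM in these, and Dhh at 234 and 62.0 CPM. Tgfb2 stood at 229.5 and 132.5 CPM. Pdgfa was highest in the venous-like sub-cluster, at 262 CPM. Efnb2, Notch3, Angpt1, Mmp14, Dhh, Edn1, Bmp6 and Pdgfa were named after their values were seen, as were Lyve1, Ccl21a, Pdpn, Myh11, Higd1b, Cd3e, Myod1 and Myog, which had few or no UMIs.

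The reporter was read through WPRE, the element that follows tdTomato in the transgene. It was counted 534 times, in 281 of the 669 barcodes (42.0%), or 68.5 per 1000000 gene UMIs, against 72.8 with Stab2, 134 in all other barcodes, 200.5 in 114 barcodes with Rgs5 of at least 20 per 10000 and under 2 Cdh5 UMIs, and 36.7 to 61.0 in the chondrocyte and leukocyte barcodes. By share of barcodes the order differed. WPRE was found in 49.5% with Stab2, 27.15% of all other barcodes, 24.6% of those with Rgs5, 24.9% of leukocyte and 21.7% of chondrocyte barcodes. More than 14 WPRE UMIs, the number that the study took to mark descendants of HCs, were found in 3 barcodes (0.448%, interval 0.0926 to 1.30%), against 1.73% of the leukocyte, 1.77% of the chondrocyte and 5.64% of all other barcodes, which were deeper. These 3 lay in sub-cluster 9, among 30 barcodes, and in the 603 others the count was 0, which allows up to 0.610%. The tdTomato sequence was counted 8 times. Irx3 stood at 59.1 CPM (34.8% of barcodes) against 125.5 CPM with Stab2 and 16.1 CPM in all other barcodes, and Irx5 at 8.34 against 17.8 CPM. Col10a1, the gene whose promoter drives Cre, stood at 15.7 against 8.91 CPM with Stab2 and 415 CPM in all other barcodes.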

How the data were processed

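The authors deposited raw UMI counts of genes by barcodes, produced by Cell Ranger 3.1.0 from alignment to mm10 with tdTomato and WPRE sequences added. Which annotation release they used was not given in the sources used here, and Seurat 3 is named in the submitters' processing notes. A second deposited count matrix of 98 exogenous sequences was joined by barcode. The P56 sample was not analysed here. Python 3.11.15, scanpy 1.11.5, numpy 2.4.6, scipy 1.17.1, igraph 0.11.9 and matplotlib 3.10.9 were used. Coordinates came from GENCODE M21 on GRCm38, the same assembly as mm10, with 30934 of 31053 gene identifiers matched.

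Counts were summed over barcodes and given as CPM (per 1000000 UMIs), with exact Poisson intervals, and shares with exact Clopper-Pearson intervals, at 95%. Log2 ratios were taken with 1 CPM added. Their calculation was tested on simulated data. Folds against 0 counts used 3 counts over the group, and shares of 0 the exact upper bound. Sub-clusters came from counts scaled to 10000 and log-transformed, 20 principal components, 15 neighbours and Leiden resolution 0.8, with seed 1. A sub-cluster counted as mixed, by a limit set after it had been seen, with at least 3 of its 10 leading genes from lists of other cells. Scrublet (expected rate 10%) marked likely doublets, which were kept. The library held 158281984 UMIs over 14181 barcodes, with 500 to 85279 and a median of 8235 UMIs per barcode.

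The members, the 25 gene lists and the comparisons were chosen with earlier results of these data known. Named genes were drawn from those of the rule, in each list the 4 highest and the 5 with the largest ratio among genes of at least 10 CPM, the 12 with the largest ratio in each direction against barcodes with Stab2 and the 12 with the largest against all other barcodes among genes of at least 50 CPM and 100 UMIs, the leading genes of the sub-clusters, and reporter and genotype genes. Others are named as chosen after their values were seen. Alternatives were tried for the limits on barcodes, the low filter, the added CPM, averaging, depth and clustering.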

Additional observations from a re-analysis of the deposited data

Results flagged for a closer look

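The EGFP sequence, which belongs to none of the alleles named for this mouse, was counted 60 times in 53 barcodes of the whole library, above the limit of 3 counts that a count of 0 allows. It was counted 0 times in the 669 endothelial barcodes without Stab2. The source of these counts was not tested.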

How the results depend on the processing

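The limits on barcodes moved the number of endothelial barcodes without Stab2 from 669 to 203 with at most 5% mitochondrial UMIs and to 394 with at least 8000 UMIs. The number of genes at least 2-fold higher than with Stab2 (444) moved to 833 with at most 5% mitochondrial UMIs, 277 with 5 CPM added, 175 with a low filter of 30 CPM, 996 with one of 2 CPM and 936 after thinning to 5000 UMIs. The number of genes at least 2-fold lower (394) moved to 596 with at most 5% mitochondrial UMIs and 230.0 with a low filter of 30 CPM. The number of sub-clusters (9) moved to 15 at Leiden resolution 1.2. The other 38 of 48 values stayed within 1.5 times. Of 70 named gene ratios past 2-fold, 58 stayed past it in the same direction under every alternative computed for them. The others were Bglap2, Bglap3, Elane, Mmp2, Nid2, Notch4, Prtn3, Rgcc, Spp1, Thbd, Timp3 and Vegfc. With the mixed sub-clusters left out, an alternative chosen after seeing the data, the log2 ratio turned to -0.10 for Prtn3 and -0.44 for Spp1, whose UMIs lay mostly in those sub-clusters. No paired analysis was possible because the result comes from no test in 1 library. With 1 mouse, all intervals cover counting error only, and differences between mice are not covered. Low counts limit genes under 10 CPM, above all in the 95 barcodes with Stab2, where 3 UMIs correspond to 2.23 CPM.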
